A study of Mus musculus with 6 samples.

Results

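The clustered protocadherins are cell adhesion proteins whose genes lie side by side in the Pcdha, Pcdhb and Pcdhg clusters of mouse chromosome 18. In Pcdha and Pcdhg each member has its own promoter and a long variable exon that is spliced to exons shared by the whole cluster, whereas each Pcdhb gene stands alone. In neurons, promoters of the cluster are used in different combinations from cell to cell, in a process that involves CTCF, cohesin, distant enhancers and DNA methylation. The locus is therefore a textbook case of gene choice that depends on cohesin loops, and it was examined here in a cohesin mutant outside the nervous system. The data are ATAC-seq peak lists, which record stretches of DNA open to a transposase.

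Members were the protein-coding genes on chromosome 18 whose symbols read Pcdha, Pcdhac, Pcdhb, Pcdhga, Pcdhgb or Pcdhgc followed only by digits. There were 57 such genes among the 21900 protein-coding genes of the annotation: 12 Pcdha, 2 Pcdhac, 22 Pcdhb, 12 Pcdhga, 6 Pcdhgb and 3 Pcdhgc genes. No measured value entered this choice. The locus examined was chr18:36730285-38041873 of mm10, from the first to the last member with 200 kb added on either side, or 1311.6 kb in all. The variable end of a member was the end of its annotated span that it does not share with its cluster, and for Pcdhb the end on the same side. A variable end was called open in a library when a distinct peak interval lay within 500 bp of it. No sequence of this locus is printed here.

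All cells were sorted urothelial cells, GFP-positive and DAPI-negative, from peeled mouse urothelium, the lining of the bladder. The WT group (3 libraries) carried the Stag2-WT genotype and the KO group (3 libraries) the Stag2-KO genotype. Both groups received TMX in the diet and were taken 1 week after induction, with 50000 cells per condition, and all 6 libraries were labelled batch 1. Stag2 encodes one of the alternative STAG subunits of cohesin. The sources used here do not give how TMX acts on the Stag2 gene, the age of the mice or the number of animals behind a library. The sample titles call the libraries biological replicates 1 to 3 of each genotype. All p-values refer to the spread among these 6 libraries, and how much of that spread is technical is not known.

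The deposited lists held 149153 to 260462 distinct intervals per library, and KO replicate 1 had the longest list. Lists were therefore compared at equal lengths, by the rank of each interval by p within its library, where rank 1 is the best. No source used here gives read totals. Of 17 urothelial marker genes, 15 had an interval at the examined end among the best 100000 of at least 3 libraries, including the uroplakin gene Upk3a (ranks 2674 to 7431) and the epithelial factor gene Elf3 (ranks 837 to 1633), while Trp63 had none in any list. Among markers of other cells, the same held for 6 of 10 neuronal, 3 of 6 Schwann and glial, 3 of 5 fibroblast, 2 of 4 smooth muscle, 1 of 4 endothelial and 1 of 5 leukocyte genes. The pan-leukocyte gene Ptprc and the glial gene Gfap had none. The end of Stag2 itself was open in all 6 libraries, at ranks of 20169, 11913 and 17473 in WT and 7120, 4989 and 14688 in KO, but the deleted part is not given in the sources used here, so this does not check the genotype labels.

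Most clustered protocadherin genes had no listed interval at their variable end among the best 100000 of these urothelial libraries. Among the best 50000 intervals, 3 of 57 members (5.26%) were open in at least 3 libraries, against 49.9% of 17492 annotated 5' ends of genes on other chromosomes. Among the best 100000, there were 7 (12.3%), against 58.6%, of which 6 were Pcdhg ends and the other was Pcdhac2. In the whole lists there were 23 (40.4%), against 63.4%, and 29 members had no interval in any library. The strength of the open ends ran from Pcdhgc3, which ranked with strong gene ends, to a group of faint Pcdhg ends that only long lists include.

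**Figure D1:**
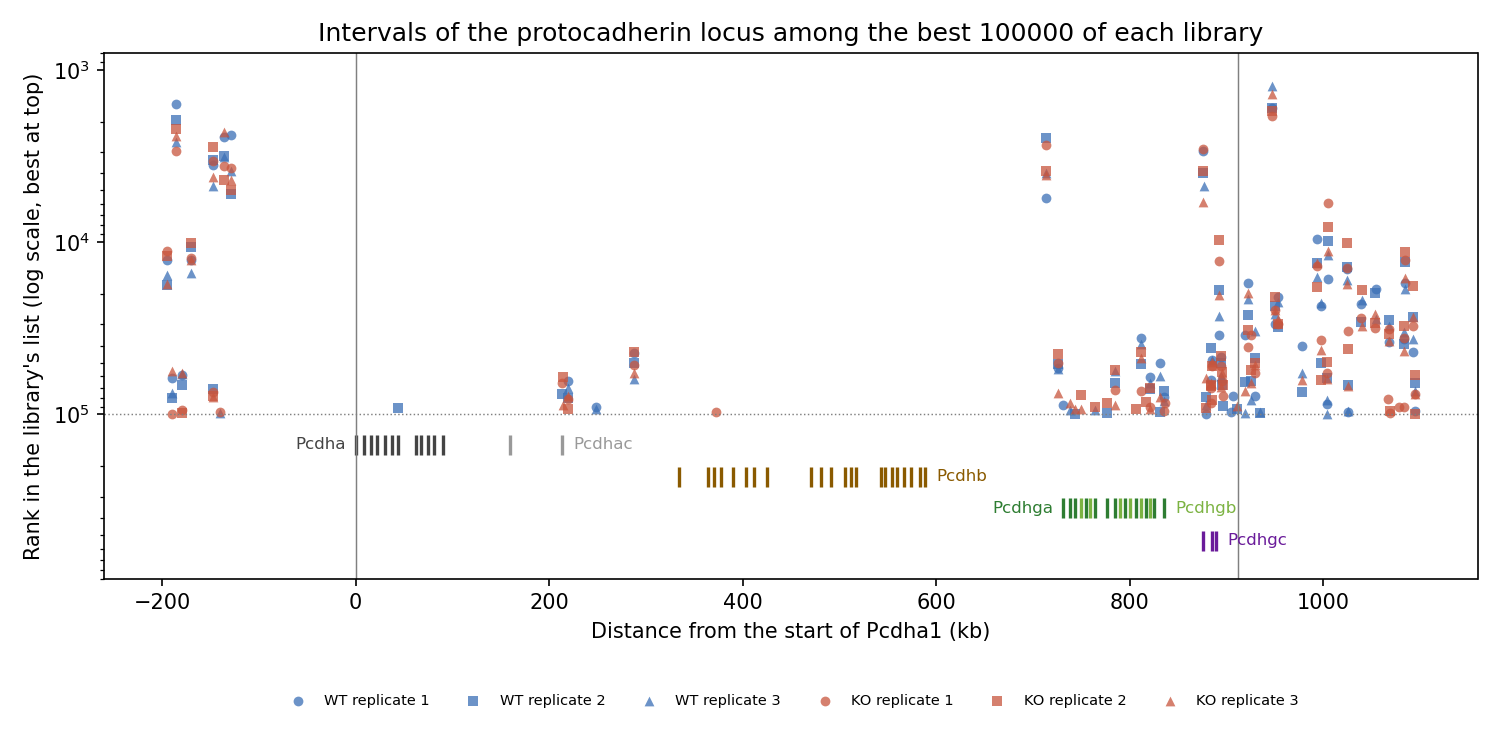
Rank of each interval (y axis, log scale, best at the top) among the best 100000 of its library against the distance from the start of Pcdha1 in kb, with WT in blue, KO in red and one symbol per replicate. Ticks below the dotted line mark the variable ends by type, and vertical lines mark the first and last base of the clusters. Strong intervals lie in both flanks, at Taf7 and at Pcdhgc3, and the Pcdha and Pcdhb arrays are nearly empty.

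The density of intervals showed the same order. Between the first and the last base of the members, the best 100000 intervals numbered 18, 21 and 18 in WT and 19, 23 and 20 in KO, or 19.7 to 25.2 per Mb. The genome mean was 38.3 per Mb. The Pcdhb array held 0 to 3.89 intervals per Mb, the lowest of any section, and the Pcdhg variable array held 56.7 to 88.2. The shared part of Pcdhg, 21.8 kb after its variable array, was the densest section, with 137 to 229 per Mb. The shared part of Pcdha held 22.4 to 44.7. The flank downstream of Pcdhg, which covers the actin regulator gene Diaph1, held 100 to 115 per Mb. The stretch from Pcdha to Pcdhb held 13.2 per Mb and that from Pcdhb to Pcdhg 14.3, both below the genome mean, and the flank upstream of Pcdha held 40.1 to 50.1.

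Pcdha members encode the alpha protocadherins, and none of the 12 had an open variable end among the best 50000 intervals of any library. Among the best 100000 intervals, only Pcdha7 in WT replicate 2 was open, at rank 91966. In the whole lists Pcdha7 was also found in WT replicate 3, KO replicate 1 and KO replicate 3, at ranks of 100208, 109545 and 125395. Pcdha8 was found in WT replicate 2 and in all 3 KO libraries, at ranks of 100011 to 147756. Pcdha9 appeared in KO replicate 1 alone, at rank 209691, and the other 9 had no interval. The summits of the Pcdha intervals lay inside the span, at a median of 482 bp after the variable end, so they did not sit on the annotated start.

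Pcdhac1 and Pcdhac2 are the c-type members at the end of the Pcdha array, a type that in neurons is expressed without the random choice seen for the alternate members. Pcdhac2 was the more open. Its ranks were 110955, 75747 and 119138 in WT and 65786, 60726 and 88486 in KO, so only WT replicate 2 fell among the KO values. The fold over local background at the best summit of each library was 3.61, 9.51 and 3.67 in WT and 7.50, 10.8 and 5.26 in KO. These summits were not at 1 place and stood at −199 to 647 bp from the annotated end. The interval of WT replicate 3 was 223 bp wide, and the others were 776 to 1375 bp wide. Pcdhac1 was listed in WT replicate 2 and the 3 KO libraries, at ranks of 153140, 100344, 128459 and 159115. Both c-type ends were thus listed in every KO library, and Pcdhac1 in only 1 of 3 WT libraries.

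Pcdhb members each encode a whole beta protocadherin from 1 gene, and this array had the fewest intervals per Mb. No Pcdhb variable end was open among the best 100000 intervals of any library. In the whole lists 3 of 22 were found at all: Pcdhb1, Pcdhb13 and Pcdhb17. Their best ranks were 109546, 133327 and 122140, and their folds ran from 2.33 to 4.23. Each of these faint intervals was missing from at least 2 libraries. The remaining 19 Pcdhb genes had no interval at the variable end in any library.

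**Figure D2:**
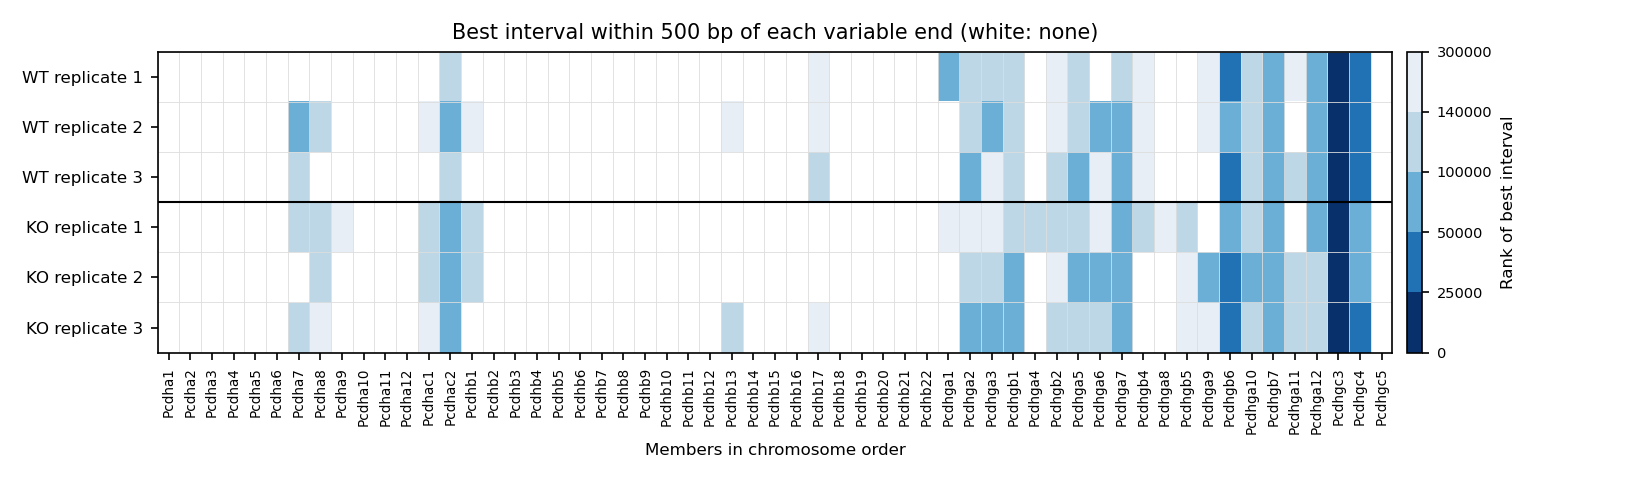
Rank of the best interval within 500 bp of each variable end, for the 57 members in chromosome order (x axis) and the 6 libraries (y axis, WT above the black line, KO below it), in whole lists; dark blue is a rank up to 25000 and white means no interval. The row of Pcdhb genes is almost white, the Pcdhg genes are faintly filled, and Pcdhgc3 is dark in every library.

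Gamma protocadherins of the a and b types, Pcdhga and Pcdhgb, alternate along the Pcdhg array. All 18 of these variable ends had an interval in the whole list of at least 1 library, against 3 of 12 Pcdha and 3 of 22 Pcdhb ends. Most were faint: the median rank of the intervals found was 108594, with a median fold of 4.13 and a median recovered coverage of 33 over a background of 6.90. Their summits lay on both sides of the annotated end, 37 of 84 after it, and the median of a member ran from −86 bp at Pcdhga7 to 406 bp at Pcdhga11. Among the best 100000 intervals, 2 of 12 Pcdhga and 2 of 6 Pcdhgb ends were open in at least 3 libraries.

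Pcdhgb6 was the strongest of the alternate members. Its ranks were 36218, 51045 and 38786 in WT and 73188, 43352 and 47258 in KO, and the genotypes overlapped. The recovered coverage at its summit was 109, 123 and 118 in WT and 64, 133 and 94 in KO, where KO replicate 1 was the lowest. Pcdhgb7, the next b-type member, was weaker. Its ranks were 60778, 71399 and 66030 in WT and 90816, 70345 and 93257 in KO, with KO replicate 2 inside the WT range. Between them Pcdhga10 was fainter, with best ranks of 84555 to 138446 in the 6 whole lists, which did not belong to 1 element. The best WT intervals lay within chr18:37746903-37747264 and the best KO intervals within chr18:37747311-37747534, without overlap.

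Pcdhga7 differed widely between replicates of the same genotype. Its ranks were 105445, 66030 and 55936 in WT and 71977, 55298 and 87847 in KO, and WT replicate 1 was the weakest. Pcdhga12, the last of the alternate members, ranked 79544, 72688 and 84164 in WT and 96021, 103414 and 111004 in KO. All 3 WT ranks were better than all 3 KO ranks there. Pcdhga4 and Pcdhga8 were each listed in KO replicate 1 alone. Pcdhga1 was listed in WT replicate 1 (rank 88429) and KO replicate 1 (rank 248032), at intervals that did not overlap.

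Pcdhgc3, Pcdhgc4 and Pcdhgc5 are the c-type gamma members next to the shared exons, and Pcdhgc3 is the one known for wide expression outside neurons. Its variable end (chr18, base 37806410) was the strongest of all 57. The ranks were 2960, 3950 and 4744 in WT and 2896, 3878 and 5834 in KO, and the folds at the summit were 19.3, 25.4 and 21.5 in WT and 26.5, 28.1 and 20.5 in KO. The libraries of the 2 genotypes overlapped on both measures. Its intervals were 850 to 1265 bp wide, and the summits stood at −80 to −67 bp from the annotated end, just before it, in all 6 libraries.

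Pcdhgc4 was open at an intermediate level, with ranks of 48502, 41156 and 48110 in WT and 52184, 52311 and 49403 in KO. The WT ranks were all better than the KO ranks, by a small margin. In WT replicates 2 and 3 the interval was 1351 and 1267 bp wide, and in the other libraries it was 353 to 412 bp wide. Pcdhgc5, whose protein is known from the brain, had no interval within 500 bp in any library. The c-type ends thus ran from Pcdhgc3 through Pcdhgc4 to Pcdhac2, and the ranges of these 3 over the 6 libraries did not overlap.

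**Figure D3:**
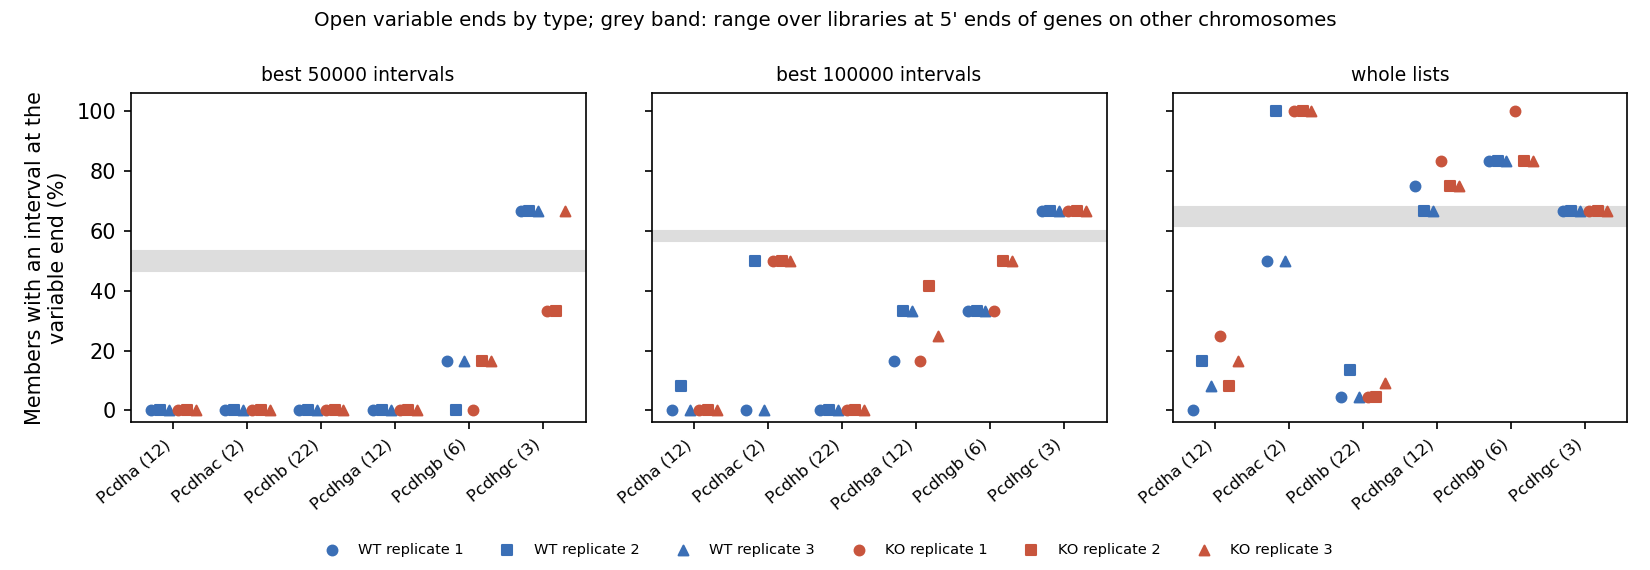
Percent of members of each type (number of members in brackets) with an interval at the variable end, 1 point per library (WT blue, KO red), among the best 50000 intervals, the best 100000 and the whole lists. The grey band is the range over the 6 libraries at 5' ends of genes on other chromosomes. Pcdha and Pcdhb stay below the band in every panel, and Pcdhgc stands at 66.7% in all libraries of the middle panel.

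Whether the number of open variable ends separated the genotypes depended on the list used. Among the best 100000 intervals, 6, 10 and 8 members were open in WT and 7, 11 and 9 in KO, or 8.0 ± 2.0 against 9.0 ± 2.0 (SD, n = 3 per group; two-sided exact permutation test, p = 0.7). With 3 libraries against 3 the smallest p of this test is 0.1. Among the best 140000 the numbers were 13, 15 and 15 in WT and 18, 18 and 17 in KO, and among the best 100000 ranked by fold 7, 11 and 9 against 13, 14 and 12 (exact permutation test, p = 0.1 for each), without overlap. In the whole lists they were 18, 22 and 18 against 24, 20 and 22 (exact permutation test, p = 0.3). Within 500 bp of 5' ends on other chromosomes, the best 140000 also held more intervals in every KO library, 1.04 times the WT mean. The 1 member found in all 3 KO lists and in no WT list was Pcdhgb5, at ranks of 125728, 146921 and 153239 in lists of unequal length. The same held for 40 of the 17492 5' ends on other chromosomes, or 0.229%. No member was open in all WT lists and in no KO list.

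Ranks were then compared by limma over 14974 gene ends with an interval among the best 100000 of at least 3 libraries, with p adjusted over all of them. These ends were drawn from both ends of every protein-coding gene. The difference was expressed as a rank gain, the KO minus WT mean of −log2 rank, so that 1 means that the rank number was 2 times smaller in KO. In this comparison 0.0467% of all ends rose and 0.114% fell in KO at an adjusted p of 0.05. Of the 7 member ends that could be tested, 0 were called in either direction. Their median gain was −0.16, against 0.29 over all ends tested, and 10595 of the 14974 ends had a positive gain. The share of the best 100000 intervals that lay at gene ends was 13.8%, 14.2% and 13.9% in WT and 14.8%, 14.9% and 14.2% in KO. A fit with this share as covariate also called 0 member ends, and 0.134% of all ends.

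Single gains were small against their errors. The gain of Pcdhgc3 was −0.08 ± 0.38 (SE; limma, adjusted p = 0.904). It was −0.35 ± 0.28 for Pcdhgb6 (limma, adjusted p = 0.435) and −0.35 ± 0.21 for Pcdhgb7 (limma, adjusted p = 0.330). The 2 ends whose genotypes did not overlap, Pcdhgc4 and Pcdhga12, had gains of −0.16 ± 0.23 and −0.33 ± 0.18 (limma, adjusted p = 0.657 and 0.313). Both were lower in KO, and 4.73% of all ends tested were lower without overlap. Pcdhga7 had a gain of 0.03 ± 0.27 (limma, adjusted p = 0.954), and Pcdhac2 the highest gain of the 7, 0.37 ± 0.22 (limma, adjusted p = 0.337). In these 2 fits WT libraries whose interval fell beyond rank 100000 were set to the rank after the last one kept: WT replicate 1 for Pcdhga7 and WT replicates 1 and 3 for Pcdhac2. The same was done for KO replicates 2 and 3 at Pcdhga12.

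Elements away from the variable ends were compared in the same way, over 99885 merged regions of the genome, of which 0.031% rose and 0.021% fell in KO. The locus held 45 of these regions, 16 between the first and last member base and 29 in the flanks. None was called in either direction (limma, adjusted p of 0.238 or more). At an unadjusted p under 0.05 there were 3 higher and 2 lower regions, or 11.1% of the 45. Over all regions 8.86% were higher and 9.5% lower at that p, 18.4% in all. The median gain was −0.06 in the locus, within a range of −0.64 to 0.93, and 0.00 over all regions. The number of intervals in the locus was 46, 52 and 50 in WT and 52, 52 and 50 in KO (exact permutation test, p = 0.7). Among the best 140000 it was 69, 68 and 69 against 94, 80 and 70, and among the best 100000 ranked by fold 44, 48 and 44 against 54, 55 and 53 (exact permutation test, p = 0.1 for each). The bases covered by the best 100000 ranked by p were fewer in every KO library, 25081, 26360 and 25905 bp in WT and 23227, 24565 and 24785 bp in KO (exact permutation test, p = 0.1). The median width of all 100000 intervals was also smaller in KO, at 406, 377 and 389 bp in WT and 343, 348 and 357 bp in KO, and its part in the covered bases was not tested.

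**Figure D4:**
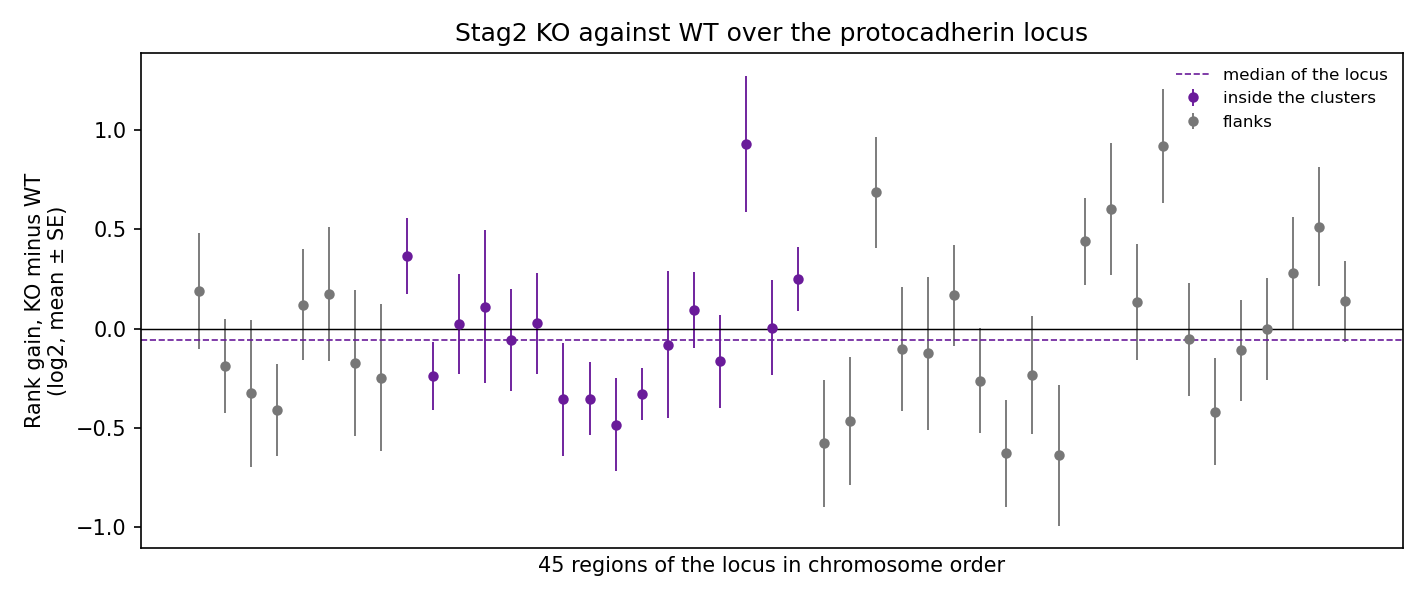
Rank gain (KO minus WT, log2, with its SE from limma) of the 45 regions of the locus in chromosome order, with purple points inside the clusters and grey points in the flanks. The dashed line is the median of the locus, −0.06, and no region passed an adjusted p of 0.05.

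The shared part of the Pcdhg cluster held the most differing element inside the clusters. The region chr18:37822391-37822993 lies 2.8 kb after the start of Pcdhgc5, within the spans of all Pcdhg genes. Its ranks were 34758, 18859 and 26868 in WT and 12912, 9680 and 20378 in KO. The KO ranks were better except that KO replicate 3 fell behind WT replicate 2. The gain was 0.93 ± 0.34 (limma, adjusted p = 0.240). A second region of this stretch, chr18:37824915-37825643, had almost no gain, 0.00 ± 0.24 (limma, adjusted p = 0.993), with ranks of 46401 to 59656 in WT and 45857 to 57868 in KO.

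Lower ranks in KO inside the clusters were found at the end of the alternate Pcdhg array. The region chr18:37765706-37766102, at Pcdhga12, had a gain of −0.33 ± 0.13 (limma, adjusted p = 0.247). Next to it, chr18:37761257-37761993 lies at the start of the transcribed pseudogene Pcdhgb8, which was no member. It ranked 50517, 96526 and 59809 in WT and 79545 in KO replicate 3, and had no interval in the lists of KO replicates 1 and 2. Its gain was −0.48 ± 0.23 (limma, adjusted p = 0.286). KO replicate 3 ranked better than WT replicate 2 there, so the genotypes overlapped. The 2 locus regions of 45 whose genotypes did not overlap with KO lower were the one at Pcdhga12 and the one at Pcdhgc4, against 9.16% of all regions.

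Between the first member and the Pcdhg cluster, the strongest element was at no protocadherin but at Taf7, which encodes a subunit of the general factor TFIID and lies between the Pcdhb and Pcdhg clusters. Its region, chr18:37643868-37644434, ranked 5559, 2476 and 3989 in WT and 2745, 3888 and 4084 in KO. The gain was 0.11 ± 0.38 (limma, adjusted p = 0.883). Between Pcdha and Pcdhb stood a single region, chr18:37218196-37218545, 29.3 kb after the last Pcdha base, a stretch that overlaps no annotated gene. It ranked 43871, 50334 and 62726 in WT and 52022, 43713 and 57752 in KO, with a gain of 0.03 ± 0.25 (limma, adjusted p = 0.961). Its ranks overlapped those of Pcdhgc4, in a part of the locus without open Pcdhb ends.

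The flanks carried the best ranks of the locus. The first was a region inside Diaph1, chr18:37877128-37877575, with ranks of 1676, 1666 and 1236 in WT and 1856, 1741 and 1384 in KO. It lies 57.6 kb after the start of Pcdhgc5, and its folds were 21.6 to 33.5. On the Pcdha side the leading regions were at the facing ends of Ndufa2 and Ik (ranks 1591 to 2976), at Zmat2 (2293 to 4342), at the histidyl-tRNA synthetase genes Hars and Hars2 (2802 to 4740), and at chr18:36801420-36802083, beside the vault RNA gene Vaultrc5 (2384 to 5269). Of the 15 neighbouring genes, 12 had an end open in all 6 libraries among the best 50000 intervals, and 0 of the 12 tested were called. Their median gain was 0.13, against 0.29 over all ends tested.

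Regions of the downstream flank showed the largest gains and losses beside the one in the Pcdhg shared part. Within the span of Rell2, chr18:37956189-37956546 ranked 96874, 67931 and 96098 in WT and 32702, 41981 and 68136 in KO. KO replicate 3 and WT replicate 2 had nearly the same rank. The gain was 0.92 ± 0.29 (limma, adjusted p = 0.238). Within Diaph1, chr18:37856035-37856313 had a gain of 0.69 ± 0.28 and chr18:37908119-37908456 one of −0.63 ± 0.27 (limma, adjusted p = 0.250 and 0.260). The second ranked 39992, 73978 and 57783 in WT and 62908 in KO replicate 3, with no interval among the best 100000 of the other 2 KO libraries. Without KO replicate 3, these 3 regions and the one in the Pcdhg shared part passed the threshold, and so did chr18:36750182-36750534 inside Ik (3 higher, 2 lower in all). The same fit called 8.87% of 94458 regions of the genome higher and 10.2% lower, so 1 library decided calls across the genome and not only here.

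Counts of faint intervals were higher in KO in some sections of the locus. Between the first and last member base, the whole lists held 42, 44 and 37 intervals in WT and 133, 51 and 50 in KO (exact permutation test, p = 0.1, the smallest it can give). In the Pcdhb array alone, there were 1, 3 and 1 in WT and 26, 7 and 5 in KO, and in the Pcdhg variable array 25, 24 and 20 against 62, 29 and 30 (exact permutation test, p = 0.1 for each). The shared part of Pcdhg held 8, 7 and 8 in WT and 7, 6 and 5 in KO, and the downstream flank 34, 33 and 34 against 45, 28 and 32. The whole locus held 86, 88 and 81 against 192, 88 and 91 (exact permutation test, p = 0.2). The list of KO replicate 1 was the longest, at 260462 intervals, and that of KO replicate 2 the shortest, at 149153. The smallest −log10 p was 3.00 in the list of KO replicate 1 and 2.00 in the others. The part of list length and of this threshold in the counts was not tested. Among the best 100000 intervals that count was 18, 21 and 18 against 19, 23 and 20 (exact permutation test, p = 0.5), so the difference lay in faint intervals.

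The place of these intervals was examined after their number was seen. Those whose midpoint lay 1500 to 2500 bp after a variable end numbered 1, 1 and 0 in the WT whole lists and 57, 11 and 6 in KO (exact permutation test, p = 0.1). In lists of equal length, the best 140000 intervals, they numbered 1, 1 and 0 in WT and 14, 8 and 2 in KO (exact permutation test, p = 0.1). Among the best 100000 they numbered 1, 1 and 0 against 1, 1 and 1 (exact permutation test, p = 1), so the difference was seen in the longer lists only. The WT intervals in this window were all after Pcdhgc3. WT replicate 3 also had an interval there, at rank 87981, with its midpoint beyond the window. Without KO replicate 1 the KO mean was still higher, by 4.33 in the best 140000 and by 7.83 in whole lists, against 7.33 and 24.0 with it. At 5' ends of genes on other chromosomes, the same window of the best 140000 held 1984, 1981 and 2037 intervals in WT and 1934, 1906 and 2058 in KO, or 0.98 times as many in KO. At the variable ends themselves, within 500 bp, the best 140000 held 15 in each WT library and 18, 21 and 18 in KO. Within 500 bp of 5' ends on other chromosomes they held 10189, 10448 and 10317 in WT and 10814, 10733 and 10616 in KO. Both sets were thus higher in every KO library, by 1.27 times at the members and 1.04 times at the other ends.

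**Figure D5:**
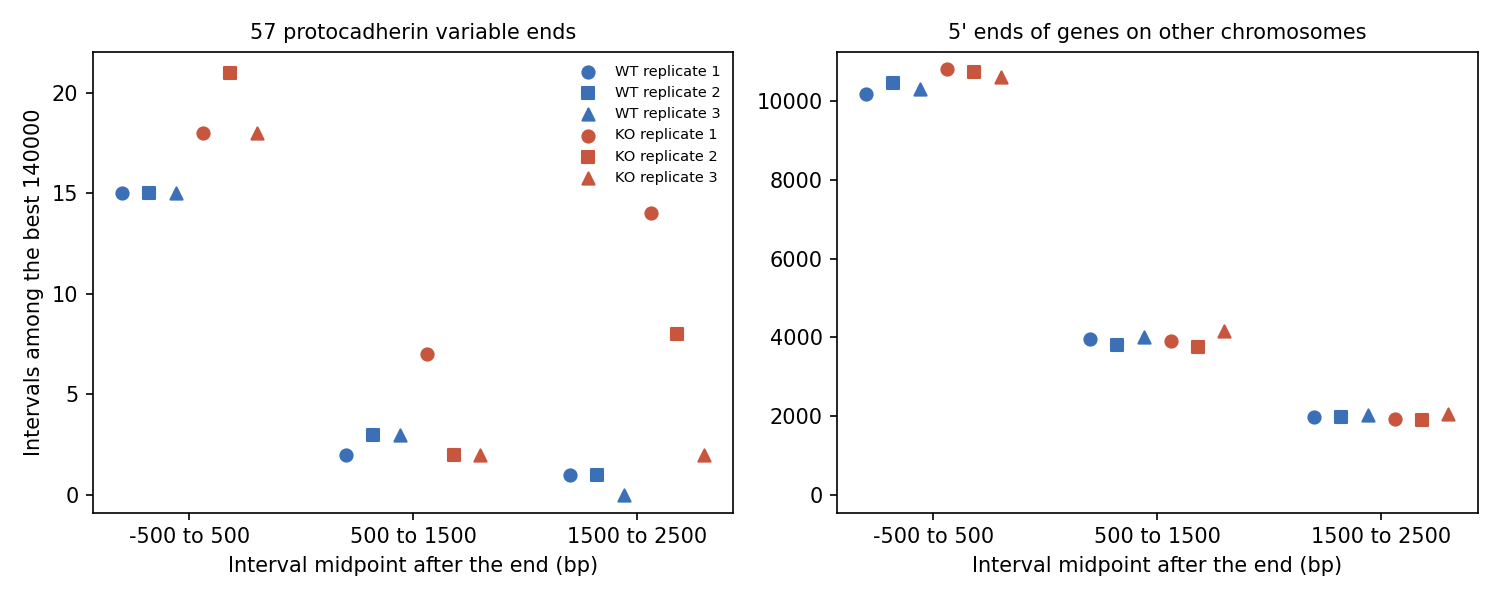
Number of intervals among the best 140000 of each library (y axis) by the distance of the midpoint after the end in bp (x axis), for the 57 variable ends on the left and for 5' ends of genes on other chromosomes on the right, with WT in blue and KO in red. In the window from 1500 to 2500 bp the members hold 0 to 1 intervals in WT and 2 to 14 in KO, while the other genes hold 1906 to 2058 in all libraries.

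Genes that act on this locus or resemble its members gave no call. Of 12 non-clustered protocadherin genes, which lie alone on other chromosomes or elsewhere on this one, 5 were open in all 6 libraries among the best 50000 intervals, in contrast to 1 of 57 clustered members, Pcdhgc3. The measures differ in part. Pcdh1, 1 of the 5, was taken at its end of better rank, as were Pcdh11x and Pcdh12, whereas each member had 1 fixed end. Pcdh10 was the strongest, at ranks of 5354, 4090 and 7437 in WT and 2984, 3124 and 3990 in KO, while Pcdh9 had no interval. The ranks of Pcdh10 were all better in KO, with a gain of 0.71 ± 0.36 (limma, adjusted p = 0.290). Of the 14974 ends tested, 1683 were higher in KO without overlap. The 7 non-clustered genes that could be tested had a median gain of 0.51, against 0.29 over all ends tested, and 0 were called.

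Of 17 regulators of protocadherin choice and silencing, 11 could be tested and 0 were called. Their median gain was 0.76, against 0.29 over all ends tested. Ctcf, the loop anchor, had ranks of 21881, 16666 and 21918 in WT and 9056, 8977 and 20067 in KO (gain 0.76 ± 0.37; limma, adjusted p = 0.283). Smchd1, a silencing factor of the locus, had a gain of 1.04 ± 0.50 (limma, adjusted p = 0.282). The cohesin subunit gene Smc1a went the other way, with ranks of 4016, 8090 and 6823 in WT and 11050, 14058 and 10523 in KO (gain −0.96 ± 0.36; limma, adjusted p = 0.266). The genotypes did not overlap at Smc1a, as at the 4.73% of all ends tested that were lower in KO without overlap, and they did at Smchd1. Stag1, Rad21, Nipbl, Wapl and Dnmt3a had no interval within 500 bp of the end examined. Rad21 and Nipbl are needed for cohesin function in dividing cells, so a missing interval at an annotated end does not show closed chromatin, and this limit holds for the members too.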

How the data were processed

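ATAC-seq peak lists of 6 libraries, each called on 1 library, were used as deposited. From the names of the deposited files, reads had been trimmed and stripped of duplicates and mitochondrial reads, Tn5 positions were used, and peaks were kept at p of 0.01 up to a maximal number, outside blacklisted stretches. Per the submitters' processing notes, coordinates are mm10 and DiffBind was used, whose output was not analysed here. Protocadherin genes are alike in sequence, and the treatment of reads matching several of them, as well as aligner, caller and versions, is not given in the sources used here. Each peak carries, from the authors' caller, a fold over local background (a ratio), a −log10 p, a −log10 q, a display score and a summit position, all deposited by the authors. The score was not used.

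Peaks sharing an interval were reduced to their best p, ranked (ties by fold, then position), and shortened to the best 100000. Overlaps of 1 bp or more were merged. Regions and gene ends with an interval in at least 3 libraries were compared as −log2 ranks with limma 3.58.1 (trend, R 4.3.3), the next rank standing for none, with Benjamini-Hochberg adjustment at 0.05. Counts were compared by two-sided exact permutation tests. Python 3.11.15, numpy 2.4.6, pandas 2.3.3, scipy 1.17.1 and matplotlib 3.10.9 were used, and merging was checked against bedtools 2.31.1. The fit was run on simulated data with independent noise of the same size in all regions and libraries. These held no shift of a whole library, so they cannot show how the fit handles such shifts. Whole summit coverages were recovered from fold and p for 100% of the 556 locus intervals with a p in range, within 0.002 in −log10 p. Coverage bounds which faint intervals can be listed.

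Gene spans came from a RefSeq table of GRCm38.p6, the same coordinates as mm10. The table gives no exons, and strands were taken from its promoter table, which was used for genes off chromosome 18. For genes without a strand the end of better rank over all libraries was used. The 3 annotations that fuse several members were left out of the neighbours. The members and lists were chosen with earlier results of these data known. Genes named singly were the members open in at least 3 libraries, the 6 best regions inside the clusters and in the flanks, the 3 regions per direction of smallest p, and the best of each list. Others were named after their values were seen: the faint members, the called regions of an alternative and the intervals after variable ends. Alternatives were list lengths of 25000, 50000 and 140000, ranking by fold, a minimal −log10 q of 2, windows of 250 and 1000 bp, an overlap of 50%, linear ranks, other library minimums, a covariate for the gene-end share, a block on replicate number, the clusters without flanks and leaving out each library. The counts after variable ends were added after seeing the data.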

Additional observations from a re-analysis of the deposited data

How the results depend on the processing

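No member end was called under any of the alternatives run. Of all gene ends tested, 38.7% were called without KO replicate 3 and 11.4% with a replicate block. In the other settings the share was 0.457% or less, so few calls could be made there. Members open in at least 3 libraries numbered 7, and 3 among the best 50000 intervals, 1 among the best 25000, 17 among the best 140000 and 12 when ranked by fold. The KO minus WT number of open members, 1.00, was −0.67 among the best 50000, 3.33 among the best 140000 and 4 when ranked by fold. The interval count of the locus, 2.00 higher in KO, was −0.33 among the best 50000 and −1.0 among the best 25000, 12.7 among the best 140000 and 8.67 when ranked by fold. The exact permutation p was 0.1 for each of the last 2 settings, in both counts. Intervals 1500 to 2500 bp after variable ends, 7.33 more in KO, were 0.333 more among the best 100000. Leaving out single libraries gave 0 to 2.00 for open members, 0.333 to 3.33 for locus intervals, and 4.33 to 33.3 for intervals 1500 to 2500 bp after variable ends, including whole lists. In these fits called locus regions numbered 0 to 3 higher and 0 to 2 lower, the highest both without KO replicate 3.

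Same-numbered libraries did not deviate together in every pair (r = −0.17, 0.46 and 0.50 over regions). WT replicates 2 and 3 correlated best with the KO library of the same number, and WT replicate 1 with KO replicate 3 (r = 0.27). With so few libraries these values cannot decide whether the replicate numbers pair the samples. With a replicate block, 1 locus region was called higher, chr18:37956189-37956546 (gain 0.92 ± 0.24; limma, adjusted p = 0.0488), and 0 lower, while 1.39% of all regions were called higher and 2.16% lower.

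Of 207 alternative values of the 13 single gains, 11 changed sign and 5 passed the threshold, and the cause was not tested. Fitted with each library's gene-end share as covariate, gains were 0.17 at 37761257, −0.11 at 37822391, 0.20 at 37908119, 0.0060 for Pcdhgb6, −0.47 for Pcdhga7 and −0.21 for Pcdhac2. Pcdhgc3 was 0.26 when ranked by fold. With single libraries left out, Pcdhgc3 ran from −0.32 to 0.19, turning positive without WT replicate 1 (0.10) or KO replicate 3, and Pcdhga7 from −0.21 to 0.21, turning negative without WT replicate 1 or KO replicate 2 (−0.15).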

Other observations

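The intervals 1500 to 2500 bp after a variable end were most numerous in KO replicate 1. There they numbered 11 in Pcdha, 21 in Pcdhb and 25 in Pcdhg, in KO replicate 2 they numbered 1, 6 and 4, and in KO replicate 3 0, 2 and 4. They lay after 47 members in at least 1 KO library, of which 12 were Pcdha, 17 Pcdhb and 18 Pcdhg genes, and no Pcdhac gene was among them. They lay after 45 members in KO replicate 1, 11 in KO replicate 2 and 6 in KO replicate 3. In 12 members they occurred in at least 2 KO libraries and in 3 members, Pcdhb10, Pcdhga11 and Pcdhgc3, in all 3. The only member with such an interval in WT was Pcdhgc3, in replicates 1 and 2. WT replicate 3 also had an interval of this element, but its midpoint lay beyond 2500 bp, so every library listed the element. Without Pcdhgc3 the whole lists held 0, 0 and 0 in WT, which follows from leaving out that member, and 56, 10 and 5 in KO.

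Most were faint: the median fold of the KO intervals was 2.88 and the median recovered coverage 23.5 over a background of 7.98, with a median width of 221 bp and a median midpoint 2091 bp after the variable end. The interval after Pcdhgc3 had more coverage, in both genotypes. Its ranks were 99380, 78936 and 87981 in WT and 124176, 91883 and 61681 in KO. The recovered coverage was 72, 153 and 82 in WT and 77, 113 and 112 in KO. The WT replicate 3 values are those of the interval whose midpoint lay beyond the window. At Pcdhb10 the KO intervals chr18:37413762-37414177 (KO replicate 1), chr18:37413979-37414188 (KO replicate 2) and chr18:37413912-37414128 (KO replicate 3) overlapped, with folds of 4.01, 5.22 and 2.03. At Pcdhga11 the folds were 2.67, 3.34 and 2.03. The parts of list length, of the higher threshold of KO replicate 1 and of reads that match several members were not tested, beyond the counts in equal lists.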
